A study of Mus musculus with 4 samples.

Results

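The genes described here are the mouse Zfp genes, whose symbol is Zfp followed by a number only, that were expressed in 4 mammary tumor cell lines. A gene counted as expressed where its mean over the 4 libraries was at least 1 RPKM, a read count divided by gene length in kilobases and by library size. Of 329 such symbols in the table, 229 passed, 75 were above 0 but under a mean of 1, and 25 were at 0 in all 4 libraries. The genes were thus chosen by their mean RPKM in the same 4 libraries that are described below, so their levels are a description. They were 229 of the 10871 genes with a mean RPKM of at least 1 in a table of 21090 genes.

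The tumor behind all 4 lines was a primary one that had spread to the lung, in a mouse in which Cre driven by the MMTV promoter had turned on an activating Pik3ca allele and a dominant-negative Trp53 allele. The controls were the unedited parental cells and a vector control line, and the knockouts were 1 line edited in exon 3 of S100a4 and 1 edited in exon 2. Edited lines were made with a lentivirus that carried Cas9 and a guide RNA and were selected with puromycin, and nothing in the labels says that any line is a single clone. There was 1 library per line, so p-values measure only the spread between these 4 libraries, which may be technical. The title of the exon 2 knockout calls its cells 308, and the other 3 titles say 307. Below, the 2 control values are given as parental and then vector control, and the 2 knockout values as exon 3 and then exon 2. S100a4 itself was at 3576 and 4741 RPKM in the controls and 1136 and 1105 in the knockouts. The lines were mesenchymal in their markers: 6 of 6 mesenchymal genes were at 1 RPKM or more in the mean, against 2 of 6 epithelial genes (Krt8 and Krt18, with Krt5, Krt14, Epcam and Cdh1 under 1). Of the immune and endothelial markers, 0 of 3 and 0 of 3 in the table reached 1. Krt18 ranged from 6.10 RPKM in the vector control to 60.2 in the parental line, and Col1a1 from 6.93 to 670 in the same 2 libraries, so the controls stood apart from each other in these genes. Their part in the results below was not tested.

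Zinc finger proteins of the C2H2 kind hold a zinc ion in a short fold that can lie in the groove of DNA, and strings of such fingers read a stretch of sequence. Many carry a KRAB box, which recruits the corepressor Trim28 and, through it, enzymes that lay down repressive chromatin, often over transposable elements. Other genes with a Zfp symbol act on RNA, on ribosomes or as ubiquitin ligases, so that the shared name does not mean a shared job. In coding sequences translated from GENCODE M21 (GRCm38), 223 of the 229 genes had at least 1 C2H2 finger, with a median of 10 and a maximum of 36 fingers, in Zfp142. Fingers were counted by a pattern of set spacing, so fingers of another spacing would be missed. The 6 genes without a match were Zfp36 and Zfp330, which matched a CCCH pattern, and Zfp703, Zfp365, Zfp839 and Zfp503. A KRAB pattern was found in 71 of the 229. The KRAB pattern misses some KRAB boxes, that of Zfp57 among them.

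Neighboring fingers are joined by a short link whose coding sequence is in some cases repeated within and between these genes. A link of the usual form between C2H2 fingers was found in 166 of the 229 genes, with 897 links in all. Counted over the 27 bases that run across a link, 774 sequences were different. The stretches below run across a link, with the 15 bases that encode it in capitals. They are shown because links of genes with a low GC content and of genes with a high GC content differ in bases while encoding nearly the same element, and GC content moves with the results that follow. The first is from a gene that was lower in both knockouts, Zfp62 (chr11:49215603-49215629, plus strand, coding GC 41.3%). The next 2 are from Zfp689 (chr7:127444752-127444778, minus strand, 61.2%), which was higher in both knockouts, and Zfp467 (chr6:48438979-48439005, minus strand, 63.1%). The last, from Zfp945 (chr17:22851448-22851474, minus strand, 37.4%), is the 27-base sequence repeated most often, 13 times in 5 genes. All coordinates are GRCm38 and all sequences are read 5′ to 3′ on the coding strand.
Zfp62: catACTGGGGAAAAGCCCtataagtgt
Zfp689: cacACAGGCGAGAAGCCCtaccactgc
Zfp467: cacACTGGCGAGCGTCCCtacccgtgc
Zfp945: catACAGGAGAGAAACCTtacaaatgt

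Expressed Zfp genes were mostly of low level. The median of their mean RPKM was 4.97, against 16.7 in the other tested genes, and 116 of the 229 were under 5 while 61 reached 10. Their coding sequences had a median GC content of 49.9% (range 35.2% to 69.4%) against 53.0% in the other genes, and a median length of 1737 bases against 1374. The threshold fell between genes of nearly the same level, with Zfp54 at 1.06 and Zfp946 at 1.01 just inside and Zfp2 at 0.991 and Zfp595 at 0.982 just outside. Each of the 229 genes had at least 121 reads over the 4 libraries, with a median of 984. The reads were recovered from the RPKM values, whose library totals were between 22472024 and 31235456.

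The median Zfp level was lower in each knockout library than in each control library, and lowest in the exon 3 knockout. The median RPKM of the 229 genes was 5.29 and 5.56 in the controls and 3.62 and 4.55 in the knockouts. Over all tested genes the medians were 15.99 and 17.2 in the controls and 14.4 and 15.2 in the knockouts. The summed Zfp RPKM was 1890 and 2110 in the controls and 1728 and 1898 in the knockouts, so the exon 2 sum was above the parental one. As a share of all RPKM in its library, the sum did follow the medians. It was 0.395% and 0.394% in the controls and 0.303% and 0.352% in the knockouts. The exon 3 knockout was the lowest of the 4 libraries for 121 of the 229 genes, the exon 2 knockout for 51, the parental line for 39 and the vector control for 18. In a bulk sample, fewer cells of a type and less RNA per cell cannot be told apart.

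The median log2(RPKM + 1) change of the Zfp genes, knockouts minus controls, was -0.31 (quartiles -0.63 and 0.01), against -0.08 over all tested genes. The change was negative for 169 of the 229 and positive for 60. Both knockouts were below both controls for 116 of the 229 genes (50.7%), a share above the 31.2% of all tested genes, and above both controls for 31 (13.5%), against 21.9% of all. These counts depended on the kind of scaling. After median ratio scaling, 111 were below (48.5%, against 27.7% of all genes) and 40 above (17.5%, against 27.3%) in all 4 knockout and control pairs. After quantile normalization, 61 were below (26.6%, against 24.0%) and 58 above (25.3%, against 27.7%), shares near the background. Quantile normalization moved the median of all genes from -0.08 to 0.04. Relative to the median of all genes, the Zfp median was -0.23 as deposited, -0.24 after median ratio scaling and -0.07 after quantile normalization. The plot of cumulative shares shows both distributions.

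**Figure D1:**
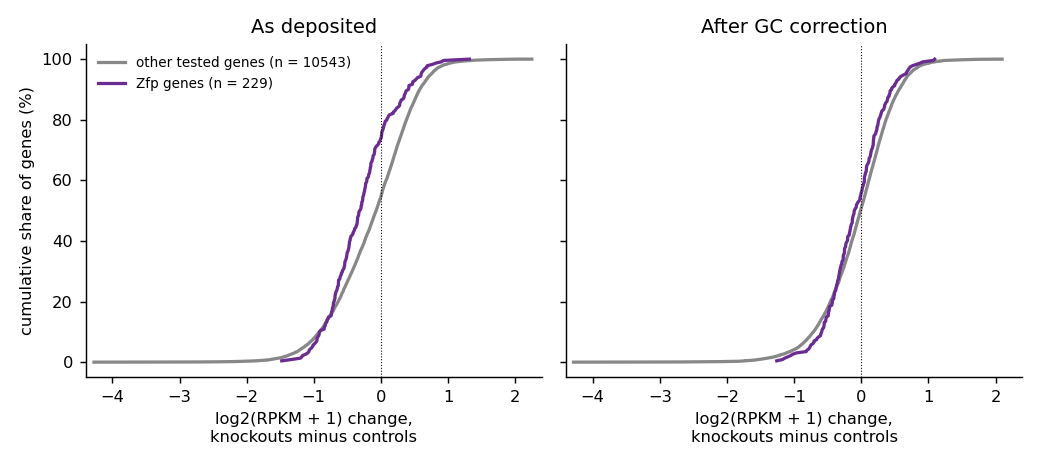
Cumulative share of genes (y axis, %) against the log2(RPKM + 1) change, knockouts minus controls (x axis), for expressed Zfp genes and the other tested genes, with the deposited values and after correction for GC content. With the deposited values the Zfp genes lie to the left, with a median of -0.31 against -0.07, and after the correction their median is -0.10.

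No Zfp gene passed an adjusted p of 0.05 in limma, which compared the 2 knockouts with the 2 controls across all tested genes. The count was 0 of 229, beside 0.0184% of all tested genes (2 genes). At an unadjusted limma p under 0.05, 27 Zfp genes were lower (11.8%, against 13.8% of all tested genes) and 5 were higher (2.18%, against 5.32%), shares that did not exceed the background. After median ratio scaling the same counts were 23 and 12 (10.04% and 5.24%, against 11.1% and 8.88% of all genes). After quantile normalization they were 12 and 16 (5.24% and 6.99%, against 8.68% and 7.86%). With voom on the recovered reads, 0 Zfp genes passed, and with a robust prior in limma 2 did, Zfp281 and Zfp593 (0.87%, against 2.62% of all genes). At least 2-fold lower in all 4 pairs were 7 Zfp genes (3.06%), near the 3.29% of all tested genes, and at least 2-fold higher were 0, against 0.423%. Of the 7, 6 had the KRAB pattern: Zfp386, Zfp719, Zfp866, Zfp599, Zfp810 and Zfp14. The other was Zfp281. The count was 2 after the GC correction, 1 with length added (0.87% and 0.44%, against 1.84% and 1.73% of all genes) and 3 after quantile normalization (1.31%, against 1.51%). Without the exon 2 knockout, 52 were at least 2-fold lower in the pairs left (22.7%, against 11.8% of all genes), without the parental line 29 (12.7%, against 9.21%) and without the exon 3 knockout 12 (5.24%, against 5.99%). Without the exon 3 knockout, 7 were lower and 1 was higher at an unadjusted p under 0.05 (3.06% and 0.44%, against 5.96% and 2.01% of all genes). With 2 libraries against 2, an exact permutation test of a single gene could not give a two-sided p below 0.333.

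The 2 knockouts were not alike. Each knockout was set against each control in turn. The exon 3 knockout was at least 2-fold below the vector control for 74 Zfp genes (32.3%, against 19.9% of all tested genes) and below the parental line for 60 (26.2%, against 17.3%). The exon 2 knockout was at least 2-fold below the vector control for 38 (16.6%, against 13.6%) and below the parental line for 17 (7.42%, against 11% of all). At least 2-fold higher counts were 4 and 6 for exon 3 against the vector control and the parental line (1.75% and 2.62%, against 6.24% and 6.08%). For exon 2 they were 3 and 5 (1.31% and 2.18%, against 5.76% and 4.16%). Between the knockouts, the exon 2 line was at least 2-fold above the exon 3 line for 19 (8.3%, against 5.63%) and below it for 5 (2.18%, against 4.28%). By this 2-fold count the controls differed less in these genes. In the vector control, 5 Zfp genes were at least 2-fold higher (2.18%, against 5.12%) and 4 lower (1.75%, against 6.77%). In medians, the log2 difference was -0.45 for exon 3 minus vector control, -0.31 for exon 3 minus parental, -0.29 for exon 2 minus vector control and -0.17 for exon 2 minus parental. For vector control minus parental it was 0.16, close in size to that of exon 2 minus parental, and for exon 2 minus exon 3 it was 0.18. Over all tested genes the medians of these last 2 differences were 0.16 and 0.05. The pairs share libraries and are not independent of each other.

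Change moved with coding GC content, in Zfp genes and in other genes alike. Across the 229 Zfp genes Pearson's r was 0.53 and Spearman's rho 0.53, and across 10543 other genes they were 0.46 and 0.48. These are correlations across genes of the same 4 libraries, and genes are not independent replicates. With the Zfp genes split into 4 by GC content, the lowest set (35.2% to 44.0%, 58 genes) had a median change of -0.60, and 46 of its genes were below both controls in both knockouts while 1 was above. In the highest set (58.0% to 69.4%, 57 genes), the median change was 0.11, and 8 were below while 22 were above. Other genes were counted in 5 classes of GC content, whose limits differ from those of the 4 sets. In the lowest class (32.6% to 47.2%), 64.2% of other genes were below and 3.77% above, against 76.7% and 1.16% of 86 Zfp genes. In the highest class (58.1% to 77.7%), 11.96% of other genes were below and 36.9% above, against 14.3% and 37.5% of 56 Zfp genes. These differences were not tested. GC content also moved with the difference between the knockouts, exon 2 minus exon 3, with r of -0.36 in Zfp genes and -0.32 in others, and less with vector control minus parental, at -0.11 and -0.16. After each library was corrected for coding GC content, the median change of the Zfp genes was -0.10.

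**Figure D2:**
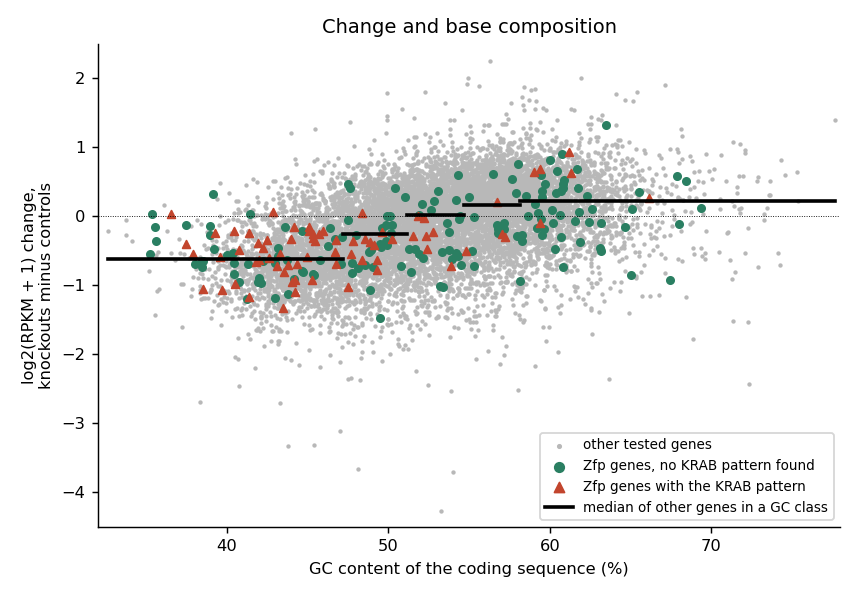
Log2(RPKM + 1) change, knockouts minus controls (y axis), against the GC content of the coding sequence in percent (x axis), for Zfp genes with and without the KRAB pattern over the other tested genes. The change rises with GC content in both, with r of 0.53 in Zfp genes and 0.46 in the other genes.

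Set against other genes of similar level, Zfp genes had a lower median change in the lowest class and in 1 higher class of few genes, and against genes of similar level and GC content the median difference was near 0. Genes were split into 5 classes of equal size by mean RPKM. In the lowest class (up to 5.05 RPKM), which held 116 of the 229, the median change was -0.46 against -0.33 in other genes, and 66.4% of Zfp genes were below both controls in both knockouts against 41.9%. In the second class the medians were -0.17 for 62 Zfp genes and -0.29 for the others, and in the third -0.09 for 37 and -0.12. In the 2 highest classes they were -0.21 for 11 Zfp genes against 0.05, and 0.47 for 3 against 0.22. In classes of GC content, the lowest (32.6% to 47.2%) held 86 Zfp genes with a median of -0.58, against -0.61 in the others. In the 4 classes above it, in order of GC content, Zfp genes were at -0.38, -0.29, -0.16 and 0.11 and other genes at -0.25, 0.02, 0.17 and 0.23, so the Zfp median was the lower one in each. When each Zfp gene was set against the median of other genes in its class of both level and GC content, the median difference was 0.02 (quartiles -0.22 and 0.30), with 112 genes below and 117 above.

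**Figure D3:**
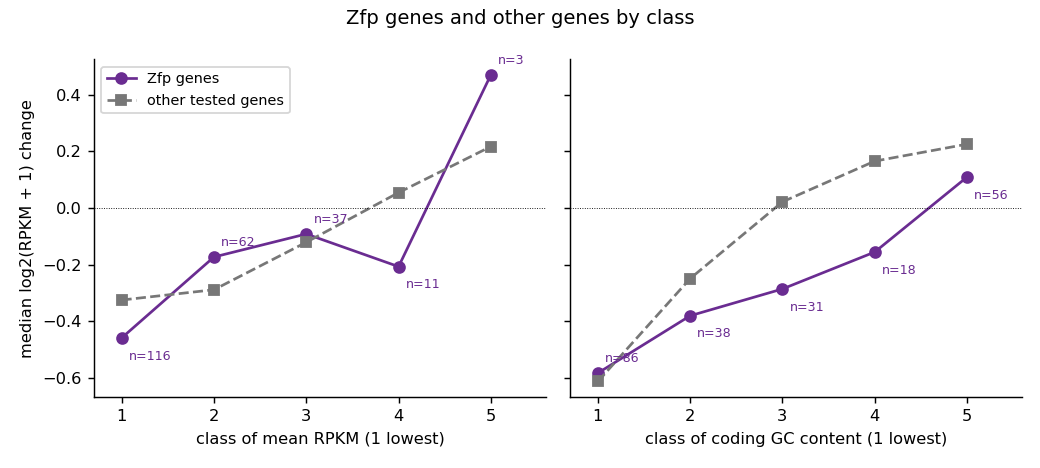
Median log2(RPKM + 1) change (y axis) of Zfp genes and other genes in 5 classes of mean RPKM and 5 classes of coding GC content (x axes, lowest class first). Other genes go from -0.33 to 0.22 over level and from -0.61 to 0.23 over GC content, and the Zfp medians lie between -0.58 and 0.47.

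Genes that act on ribosomes were among the Zfp genes that were higher in both knockouts. Zfp593, a factor of large ribosomal subunit assembly, was at 14.1 and 21.2 RPKM in the controls and 39.0 and 51.0 in the knockouts. Its log2 change was 1.32 (SE 0.33), with a limma adjusted p of 0.112, the largest positive change of the 229, and the groups did not overlap. Zfp622, which takes part in the maturation of the same subunit, was at 33.3 and 46.1 RPKM in the controls and 67.4 and 67.3 in the knockouts. Its change was 0.77 (SE 0.31, limma adjusted p of 0.218), and both knockouts were above both controls. Zfp598, the ubiquitin ligase that senses collided ribosomes, was at 37.3 and 27.7 RPKM in the controls and 43.2 and 47.2 in the knockouts, a change of 0.48 (SE 0.31, limma adjusted p of 0.41) that was 0.25 after the GC correction. Its groups did not overlap, and its controls also lay apart.

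Other genes with roles in RNA were lower. Zfp106, an RNA-binding protein needed by motor neurons and muscle, was at 46.3 and 46.9 RPKM in the controls and 23.1 and 28.8 in the knockouts. Its change was -0.83 (SE 0.30, limma adjusted p of 0.19), which was -0.49 after the GC correction and -0.19 with length added, and it had the most reads of the named genes, 22141 over the 4 libraries. Zfp36 (tristetraprolin), which binds AU-rich elements and speeds mRNA decay, was at 30.4 and 32.03 RPKM in the controls and 22.8 and 25.1 in the knockouts, a change of -0.37 (SE 0.30, limma adjusted p of 0.511) that was -0.61 after the GC correction. Its groups did not overlap, but the change was near its standard error. Zfp326, a factor that links chromatin and splicing, was at 7.31 and 8.77 RPKM in the controls and 3.37 and 6.10 in the knockouts, with the exon 3 knockout the lowest. In all, 6 genes of this list were expressed, with a median change of 0.05. Both knockouts lay below both controls for 3 of them and above both for 3. Among all tested genes, 31.2% lay below and 21.9% above. The 3 that lay above had a coding GC content of 63.5% (Zfp593), 58.0% (Zfp622) and 60.8% (Zfp598). Of other genes with a GC content of 58.1% to 77.7%, 36.9% lay above. At 54.7% to 58.1%, the class of Zfp622, it was 33.8%. The difference from these shares was not tested.

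The 2 genes listed as ligases of ubiquitin and SUMO and the mitotic gene were lower in both knockouts. Zfp598, a ubiquitin ligase listed with the RNA genes, was higher, as given above. Zfp91, a ubiquitin ligase, was at 26.1 and 46.3 RPKM in the controls and 15.04 and 18.2 in the knockouts. Its change was -1.03 (SE 0.35, limma adjusted p of 0.173), and the vector control lay well above the parental line. Zfp451, a SUMO ligase, was at 8.37 and 8.01 RPKM in the controls and 3.65 and 6.53 in the knockouts. Its change was -0.63 (SE 0.36, limma adjusted p of 0.354), which was -0.18 after the GC correction and -0.036 with length added. Zfp207, which loads a checkpoint protein onto kinetochores and binds microtubules, was the second most abundant Zfp gene, at 66.0 and 84.5 RPKM in the controls and 34.2 and 57.2 in the knockouts. Its change was -0.74 (SE 0.34, limma adjusted p of 0.259), which was -0.43 after the GC correction, and the exon 2 knockout was closer to the parental line than to the exon 3 knockout.

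Transcription factors of the role list were mostly lower. Of the 10 expressed, 9 had a negative change, 5 were below both controls in both knockouts and 0 were above, with a median of -0.59. Over all tested genes, 31.2% were below and 21.9% above, and over all Zfp genes 50.7% and 13.5%. A negative change was found in 5974 of the 10871 tested genes and in 169 of the 229 Zfp genes. The median of the 10 was -0.37 after the GC correction and -0.30 with length added. The lowest was Zfp281, a repressor and activator that holds back differentiation of pluripotent cells, at 17.8 and 18.7 RPKM in the controls and 4.49 and 7.72 in the knockouts. Its change was -1.48 (SE 0.35), the most negative of the 229, and its limma adjusted p of 0.105 was the smallest of the 229. Each knockout was at less than 0.5 of each control, and after the GC correction the change was -1.26.

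Zfp148, which binds GC-rich promoters and is close to Zfp281 in sequence, was at 11.9 and 13.4 RPKM in the controls and 3.90 and 10.7 in the knockouts, so that the exon 3 knockout alone stood apart. Zfp217, a gene amplified in human breast cancers, was at 17.0 and 14.6 RPKM in the controls and 7.91 and 10.7 in the knockouts, a change of -0.71 (SE 0.33, limma adjusted p of 0.262) with no overlap. Zfp462, a chromatin regulator with 33 fingers, was at 10.4 and 7.29 RPKM in the controls and 3.62 and 5.61 in the knockouts, and its controls differed from each other by more than the exon 2 knockout differed from the vector control.

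The remaining genes of the list differed in which library stood apart. Zfp143, an activator at many promoters and at chromatin loops, was at 11.1 and 12.8 RPKM in the controls and 5.71 and 8.80 in the knockouts, without overlap. Zfp410, an activator of the chromatin gene Chd4, was at 21.8 and 30.6 RPKM in the controls and 22.05 and 21.4 in the knockouts, and here the vector control alone stood apart. Zfp335, a cofactor needed in neural progenitors and T cells, was at 15.2 and 15.3 RPKM in the controls and 18.8 and 13.4 in the knockouts, with the knockouts on either side of the controls. Zfp467 was at 3.31 RPKM in the parental line and between 0.848 and 1.04 in the other 3 lines, so its difference lay within the controls.

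Of the most abundant Zfp genes, some were higher and some lower in the knockouts. Zfp740 was the highest, at 68.3 and 71.4 RPKM in the controls and 101 and 93.2 in the knockouts, a change of 0.47 (SE 0.29, limma adjusted p of 0.386) that was 0.82 after the GC correction. Zfp414 was at 31.2 and 29.8 RPKM in the controls and 62.2 and 47.7 in the knockouts, a change of 0.82 (SE 0.30, limma adjusted p of 0.194). In both genes the groups did not overlap. Zfp637 was at 20.9 RPKM in the parental line and between 38.1 and 43.9 in the other lines, so the vector control sat with the knockouts. Zfp664 was at 35.2 and 33.8 RPKM in the controls and 25.3 and 31.8 in the knockouts, a change of -0.27 that was 0.047 after the GC correction.

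**Figure D4:**
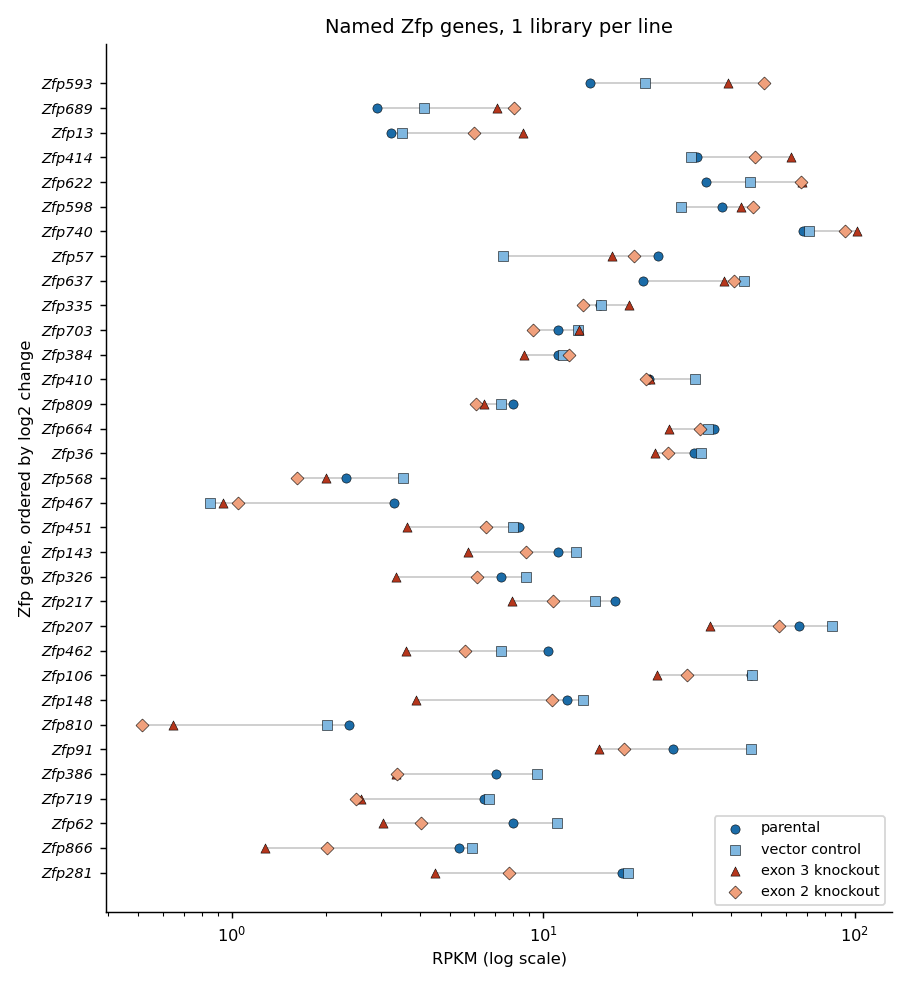
RPKM on a log scale (x axis) of the named Zfp genes in each of the 4 libraries, 1 point per library, ordered by log2 change (y axis). Zfp281 is at the low end, with knockouts at 4.49 and 7.72 against controls at 17.8 and 18.7, and Zfp593 at the high end, with knockouts at 39.0 and 51.0 against 14.1 and 21.2.

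A larger share of KRAB genes than of the rest was lower in both knockouts, and they were also of lower GC content and level. The 71 genes with the pattern had median RPKM values of 3.15 and 3.55 in the controls and 2.04 and 2.90 in the knockouts. Their median change was -0.37, with 61 negative and 45 (63.4%) below both controls in both knockouts. In the 158 genes without it the median was -0.24, with 108 negative and 71 (44.9%) below. Over all tested genes the share below was 31.2%. Median coding GC content was 45.3% with the pattern and 52.9% without. Of other genes in the GC class of the first median (32.6% to 47.2%), 64.2% were below, and in that of the second (51.2% to 54.7%), 23.8%. After the GC correction the median changes were -0.02 with the pattern and -0.13 without, so the order turned. The difference itself was not tested. By number of fingers, the median change was -0.06 with 1 to 5 fingers (46 genes), -0.27 with 6 to 10 (76 genes), -0.40 with 11 to 15 (70 genes) and -0.35 with more than 15 (31 genes).

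Several KRAB genes were low in both knockouts. Zfp866 was at 5.35 and 5.90 RPKM in the controls and 1.28 and 2.02 in the knockouts, a change of -1.33 (SE 0.36, limma adjusted p of 0.13) that was -0.76 after the GC correction. Zfp719 was at 6.44 and 6.69 RPKM in the controls and 2.60 and 2.499 in the knockouts, a change of -1.09 (SE 0.34, limma adjusted p of 0.155) that was -0.55 after it. In both genes each knockout was at less than 0.5 of each control. Zfp386 was at 7.03 and 9.50 RPKM in the controls and 3.35 and 3.38 in the knockouts, a change of -1.07 that was -0.33 after the GC correction. Zfp810 was at 2.38 and 2.02 RPKM in the controls and 0.645 and 0.514 in the knockouts, a change of -1.02 from only 211 reads in all, which was -0.67 after the GC correction. Zfp62, which holds the first link shown and has 25 fingers, and in which the KRAB pattern was not found, was at 8.01 and 11.03 RPKM in the controls and 3.06 and 4.05 in the knockouts. Its change was -1.20 (SE 0.35, limma adjusted p of 0.138), and -0.52 after the GC correction.

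Among genes that were higher in the knockouts, Zfp689, a KRAB gene with 10 fingers, was at 2.92 and 4.14 RPKM in the controls and 7.11 and 8.02 in the knockouts, a change of 0.93 (SE 0.35, limma adjusted p of 0.194). Zfp13, with 8 fingers, was at 3.24 and 3.52 RPKM in the controls and 8.60 and 5.99 in the knockouts, a change of 0.90 (SE 0.35, limma adjusted p of 0.207). In neither gene did the groups overlap. Of the KRAB repressors with known targets, Zfp57, which keeps methylation at imprinted genes, was at 23.4 and 7.43 RPKM in the controls and 16.6 and 19.5 in the knockouts. The knockouts thus lay between the controls. Zfp809, which silences retroviral sequences, was at 7.97 and 7.32 RPKM in the controls and 6.45 and 6.07 in the knockouts, and Zfp568, which silences a placental transcript of Igf2, at 2.32 and 3.54 RPKM in the controls and 2.01 and 1.61 in the knockouts. In both, the knockouts were below both controls, but the change of Zfp809 was 0.23 after the GC correction and 0.045 after quantile normalization.

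The partners through which KRAB genes act were mostly lower in the knockouts, but Trim28 and a few others were higher. Of 24 listed corepressor genes, 22 were tested, 0 passed limma's adjusted p, 5 were lower and 0 higher at an unadjusted p under 0.05, and the median change was -0.43. The change was negative for 18 and positive for 4, and 13 were below and 3 above both controls in both knockouts. Those above were Trim28, Ehmt2 (change of 0.48) and Uhrf1 (0.33), and Dnmt1 (0.34) was the other positive one. Over all tested genes, 13.8% were lower and 5.32% higher at that p, and 31.2% were below and 21.9% above. Trim28, the protein the KRAB box binds, was at 114 and 126 RPKM in the controls and 154 and 163 in the knockouts, a change of 0.40 (SE 0.29). Setdb1, the histone H3 lysine methyltransferase it recruits, was at 15.03 and 19.8 RPKM in the controls and 14.9 and 11.4 in the knockouts, a change of -0.38. Trim28 was thus above both controls in both knockouts, while the exon 3 value of Setdb1 was level with that of the parental line. Atrx, a chromatin remodeler at silenced repeats, was at 19.2 and 21.3 RPKM in the controls and 5.22 and 9.10 in the knockouts. Its change was -1.42 (SE 0.35, limma adjusted p of 0.105), which was -0.73 after the GC correction. After the GC correction the median of this list was -0.18, and with length added it was -0.0049.

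Related zinc finger families had a median change between that of the Zfp genes and that of all genes. Of 62 tested genes with a Zbtb, Zscan, Zkscan or Klf symbol, 36 were negative and 26 positive, 0 passed limma's adjusted p, 10 were lower and 1 higher at an unadjusted p under 0.05, and the median change was -0.17, which was 0.11 after quantile normalization. Over all tested genes the shares at that p were 13.8% lower and 5.32% higher. By family the medians were -0.26 in 34 Zbtb genes, -0.21 in 8 Zscan genes, 0.21 in 7 Zkscan genes and 0.06 in 13 Klf genes. The difference from the Zfp median of -0.31 was not tested.

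Zfp genes lie in clusters along the chromosomes, and the clusters differed in GC content and in the sign of the change. In 12 groups, at least 4 expressed Zfp genes followed each other with gaps of at most 500000 bases. The largest, chr7:29768552-30169750, held 15 genes, of which 14 had a negative change and 13 were below both controls in both knockouts, with a median of -0.37. In it, Zfp260 was at 17.89 and 17.92 RPKM in the controls and 6.13 and 9.63 in the knockouts, and Zfp82 was the only gene with a positive change, of 0.05. In chr8:69209038-69791178, which holds Zfp866, 5 of 5 genes were below both controls in both knockouts, with a median of -0.65 and a median GC content of 43.4%. The chr7 group had a median GC content of 48.8%. Of other genes in that class of GC content (47.2% to 51.2%), 40.5% were below both controls in both knockouts. In the class of the chr8 median (32.6% to 47.2%) the share was 64.2%, and over all tested genes it was 31.2%. The difference of these groups from those shares was not tested.

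Another 3 groups had a positive median. In chr7:127233061-127885996, which holds Zfp689, the median of 10 genes was 0.23 at a median GC content of 59.4%. In chr6:47835661-48623227 the median of 8 genes was 0.25 at 59.9%, and in chr7:4915217-5038446 that of 5 genes was 0.34 at 63.2%. After the GC correction these medians were 0.03, 0.05 and 0.11, and that of the chr8 group was -0.07. Low GC content and the change did not always go together. In chr17:21008903-22867134, which holds Zfp945, the median of 11 genes was -0.27 at a GC content of 38.4%, and after the GC correction it was 0.52. There, Zfp160 was at 4.51 and 4.07 RPKM in the controls and 1.42 and 2.10 in the knockouts, a change of -0.95, while its neighbor Zfp53 was at 5.88 and 4.34 RPKM in the controls and 6.24 and 7.04 in the knockouts, a change of 0.33. Of the 229 Zfp genes, 210 shared no stretch of 75 coding bases with another gene and 6 shared more than 5% of such stretches. The most, 21.8%, was in Zfp747, near Zfp689, and how reads that match several genes were counted is not given in the sources used here, so its level is uncertain. Zfp260, Zfp82, Zfp160 and Zfp53 were chosen after their values were seen.

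**Figure D5:**
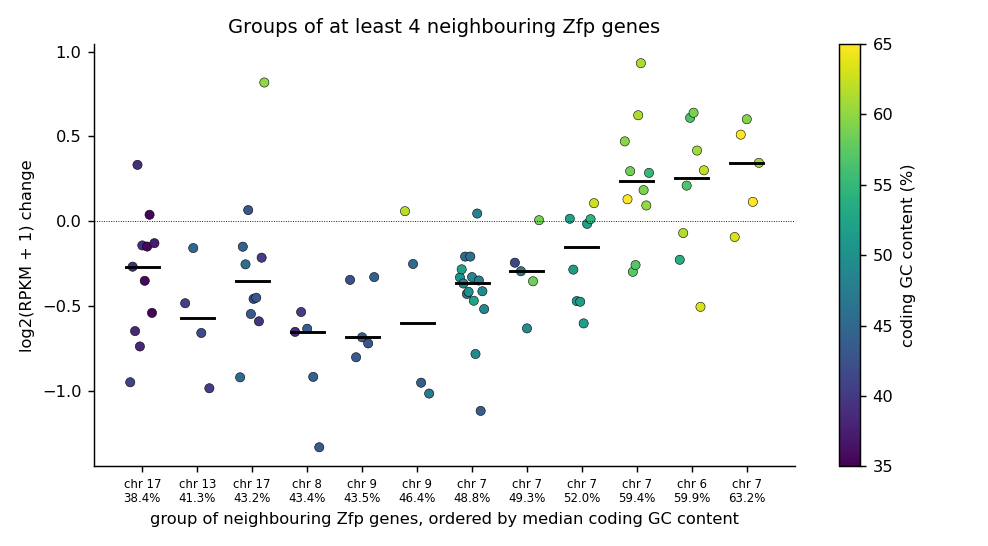
Log2(RPKM + 1) change, knockouts minus controls (y axis), of each gene in the 12 groups of neighboring Zfp genes, ordered by median coding GC content (x axis). The 3 groups at the right, with a median GC content of 59.4% to 63.2%, have medians of 0.23 to 0.34, and every other group has a negative median.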

How the data were processed

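RNA of 4 lines was sequenced by the study, and the labels and methods name different library kits. The authors deposited RPKM values, 1 column per library, on a linear scale. The submitters' processing notes name CASAVA 1.8, GSNAP and GRCm38, and the counting rule and gene model are not given in the sources used here. Groups came from sample titles. Whole reads were recovered from the ratios between libraries, and 100% of genes came out whole within 0.001 reads. Gene lengths were scaled to annotated coding lengths, after which 56.0% of 10772 equaled one. That share was partly set by the scaling, so it does not test whether RPKM scales with coding length. Reads in genes numbered 14592504 to 20367417 per library, and depth limits low genes most.

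Values were taken as log2(RPKM + 1), which understates changes of low genes, and genes with a mean of at least 1 were tested with limma 3.58.1 (R 4.3.3) with an intensity trend, 2 knockouts against 2 controls, with Benjamini-Hochberg adjustment over 10871 genes. On simulated data, 100% of 200 genes changed by 3 on the log2 scale were recovered and 3 unchanged genes were called. The changed genes were drawn from those with a mean above 3 on that scale, and every gene was given the same spread. Zfp changes ran from -1.48 to 1.32, so the simulation gives no measure of how often changes of their size would be found. Coding GC content, fingers, KRAB patterns and links came from GENCODE M21 coding sequences on GRCm38, read in Python 3.11.15 with biopython 1.88. RefSeq proteins, planned for the KRAB pattern, were not used here. The GC correction was a loess fit (span 0.5) per library.

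Named were the 8 genes of highest mean, the 6 with the largest fall and 4 with the largest rise by the smallest change over the 4 pairs, and a list of genes with known roles, of which 22 of 28 were expressed. The Zfp genes, lists and classes were chosen with earlier results of these data known. Alternatives were a pseudocount of 0.1, a filter at 5 RPKM or none, median ratio scaling, quantile normalization, GC and length corrections, limma with a robust prior or no trend, voom, a fold of 1.5 and leaving out each library. Restriction to genes with at least 500 reads or with under 5% of 75-base windows shared with other genes was added after seeing the data. The link sequence of 1 gene is not reported here.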

Additional observations from a re-analysis of the deposited data

Results flagged for a closer look

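In 3 named Zfp genes, the exon 3 and exon 2 knockouts lay on opposite sides of both controls. The difference of exon 3 minus exon 2 on the log2(RPKM + 1) scale was -0.43 for Zfp384, a transcription factor of matrix genes, at 8.69 RPKM (exon 3) and 12.1 RPKM (exon 2) around controls of 11.1 and 11.5. It was 0.44 for Zfp703, a corepressor in luminal breast cells, at 13.0 and 9.27 RPKM around controls of 11.1 and 12.9, and 0.46 for Zfp335, at 18.8 and 13.4 RPKM around controls of 15.2 and 15.3. With 1 library per knockout these differences were not tested. Of all 229 Zfp genes, 19 (8.3%) had the knockouts on opposite sides of both controls, against 7.88% of all tested genes.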

How the results depend on the processing

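After the GC correction, 9 Zfp genes were lower at an unadjusted p under 0.05 (27 without it), 73 were below and 49 above both controls in both knockouts, the median change was -0.10, the difference from genes of like level and GC content 0.055, the KRAB difference (with minus without the pattern) 0.11 against -0.13, the corepressor median -0.18, and 2 genes were at least 2-fold below. After correction for GC content and length, these were 13, 63, 53, -0.048, 0.063, 0.093, -0.0049 and 1. As shares of the Zfp genes, the lower, below and above counts were 3.93%, 31.9% and 21.4% after the GC correction. Over all tested genes these shares were 8.22%, 24.6% and 22.5%. With length added the Zfp shares were 5.68%, 27.5% and 23.1%, against 8.27%, 24.5% and 21.4% of all genes. After quantile normalization, 12 were lower and 16 higher, 61 below and 58 above, the median was -0.026, the KRAB difference -0.042 the median of related families 0.11, and 3 genes were at least 2-fold below. With median ratio scaling 12 were higher. With a filter at 5 RPKM (113 Zfp genes), 13 were lower, 39 below and 2 at least 2-fold below. These were 11.5%, 34.5% and 1.77%, against 13.5%, 28.3% and 2.24% of all genes. With that filter the median was -0.13, the difference from like genes -0.0025, the KRAB difference -0.19 and the related families 0.063. With no filter (304 genes), 16 were at least 2-fold below (5.26%, against 5.57% of all genes) and the KRAB difference was -0.081. With a pseudocount of 0.1 the KRAB difference was -0.20, and with voom it was -0.19 and the median -0.42. A robust prior in limma gave 2 genes past an adjusted p of 0.05 (0.87%, against 2.62% of all genes). A fold of 1.5 gave 30 genes below in all pairs. Genes with at least 500 reads (162, chosen after seeing the data) gave 71 below. The counts at a fold of 1.5 and at 500 reads have no share over all genes beside them. Leaving out each library in turn gave 0 to 5 genes past the adjusted p, 7 to 35 lower (3.06% to 15.3%, against 5.96% to 15.4% of all genes) and 1 to 6 higher (0.44% to 2.62%, against 2.01% to 7.80%) at the unadjusted p, 135 to 153 below (59.0% to 66.8%, against 40.8% to 47.3% of all genes) and 38 to 51 above (16.6% to 22.3%, against 31.3% to 37.8%) all controls left, 10 to 52 at least 2-fold below (52 without the exon 2 knockout, 29 without the parental line, 12 without the exon 3 knockout), medians of -0.40 to -0.26, differences from like genes of 0.00086 to 0.087, KRAB differences of -0.23 to -0.073, corepressor medians of -0.63 to -0.27 and related family medians of -0.22 to -0.017. The 5 genes without the parental line (2.18%, against 7.25% of all genes) were Zfp191, Zfp281, Zfp62, Zfp68 and Zfp91, and the 1 without the vector control (0.44%, against 4.15%) was Zfp593. Of 33 named genes, 25 kept the sign of their change under the alternatives run. The change was 0.047 for Zfp664, -0.16 for Zfp335 and 0.23 for Zfp809 after the GC correction, 0.15 for Zfp809 with length added, and 0.12, 0.11 and 0.045 for Zfp384, Zfp703 and Zfp809 after quantile normalization. With each library left out in turn, it ran from -0.15 (without the parental line) to 0.89 for Zfp637, from -1.12 to 0.11 (without the parental line) for Zfp467, from -0.36 (without the vector control) to 1.17 for Zfp57, from -0.35 to 0.085 (without the exon 3 knockout) for Zfp384, from -0.18 (without the exon 3 knockout) to 0.29 for Zfp335, and from -0.34 to 0.11 (without the exon 2 knockout) for Zfp703. The cause was not tested. Where a group was left with 1 library, that library was assumed to vary like the others. No paired analysis was possible because the labels give no replicate numbers.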
